A study of Mus musculus with 6 samples.

Results

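Lysosomal hydrolases and membrane proteins, a set of 37 genes chosen by symbol for their known role, were examined in cultured mouse macrophages that had been grown out of bone marrow (BMDMs). All 37 were found among the 16519 genes of the deposited table, and all 37 passed the filter on low counts, with at least 960 reads per gene in every library. Bulk RNA sequencing was done on 3 libraries from Trmt61a f/f LysmCre mice (KO) and 3 libraries from Trmt61a f/f mice without Cre (WT). Both genotypes carry the floxed Trmt61a alleles. LysmCre is a Cre recombinase driven by the lysozyme gene Lyz2 and acts in myeloid cells. Cre was present in KO and absent in WT, and effects of Cre and of the loss of Trmt61a cannot be told apart here. Trmt61a is the catalytic subunit of a methyltransferase that places N1-methyladenosine in tRNAs. The labels give neither the age of the mice nor any stimulus, nor whether the 3 libraries of a genotype are separate animals or separate cultures. The p-values therefore reflect the spread among these libraries alone, which may be technical.

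Lysosomes are acidic organelles in which macromolecules taken up from outside or delivered by autophagy are broken down. Their soluble hydrolases each remove one kind of bond, many of them from the end of a sugar chain, and the inherited lack of a single one leads to a storage disease. Membrane glycoproteins line the organelle, carry out transport, and export the products. Macrophages, which digest engulfed cells and microbes, are rich in lysosomes, and transcription factors of the TFEB, TFE3 and MITF family raise many lysosomal genes together.

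The libraries held between 37021855 and 41033179 gene counts. Trmt61a had 20, 30 and 22 counts in the KO libraries, against 183, 155 and 208 in the WT libraries, and KO kept 13.1% of the WT level in counts-per-million values (CPM, with library sizes scaled by TMM factors). The log2 fold change was -2.92 ± 0.28 (SE; edgeR quasi-likelihood test with Benjamini-Hochberg adjustment, adjusted p = 0.00219). Macrophage markers were high in every library, with Csf1r between 3930 and 5117 CPM in KO and between 4112 and 4929 CPM in WT. Of 8 macrophage markers 1 had a log2 fold change above 0 and 7 below, with a median of -0.03, and 0 passed. Markers of lymphoid cells summed to at most 2.87 CPM and those of dendritic cells to at most 3.16 CPM in any library, and Cd3e, a defining T cell gene, was listed at 0 in KO 1 and KO 2. Markers of erythroid cells and megakaryocytes summed to 149, 160 and 159 CPM in KO, against 139, 137 and 121 CPM in WT, so every KO library lay above every WT library. Most of that sum was Pf4, a platelet chemokine, with a log2 fold change of 0.21 (edgeR unadjusted p = 0.0245, adjusted p = 0.999949), and Gp9, a platelet receptor subunit, had a log2 fold change of 1.03 (edgeR unadjusted p = 0.0323, adjusted p = 0.999949) with groups that did not overlap either. All 4 tested genes of that list had log2 fold changes above 0. The part of these cells in the members' log2 fold changes was not tested. Neutrophil markers summed to between 1607 and 2571 CPM in KO and between 1617 and 2941 CPM in WT. KO 1 and WT 2 had the lowest neutrophil sums of their genotypes, and several results that rest on them are also given without them.

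The main comparison asked which lysosomal transcripts differ between KO and WT macrophages. None of the 37 passed (edgeR quasi-likelihood test, adjusted p under 0.05), where 0.0317% of all 12605 tested genes passed. At an unadjusted p under 0.05 there was 1 member, Grn, which is 2.70% of the members, against 3.10% of all tested genes. DESeq2 and limma voom also called 0 members, each with 1 member at an unadjusted p under 0.05. That number was 0 with upper-quartile factors, with the stricter filter, with the replicate number as a block and without KO 2, WT 1, WT 2 or WT 3, and it was 2 without KO 3. In the main fit, the 95% interval of the KO to WT ratio lay within 1.5-fold in either direction for all 37 members. Arsb came closest to that limit, with an upper end of 1.49. For 33 members, or 89.2%, the interval lay within 1.2-fold. The 4 others were Arsb, Galns, Sgsh and Naglu. Of the 5745 tested genes at least as abundant as the least abundant member, 97.8% had an interval within 1.5-fold and 77.4% within 1.2-fold. Those genes had a median of 75.2 CPM, against 191 CPM for the members, so the shares are not matched for abundance. The intervals may be somewhat too narrow, because the fit gave too many false calls in most simulated data sets. In bulk RNA, fewer cells of a type and less RNA per cell cannot be told apart, and a p that misses the threshold does not show that levels were equal.

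**Figure D1:**
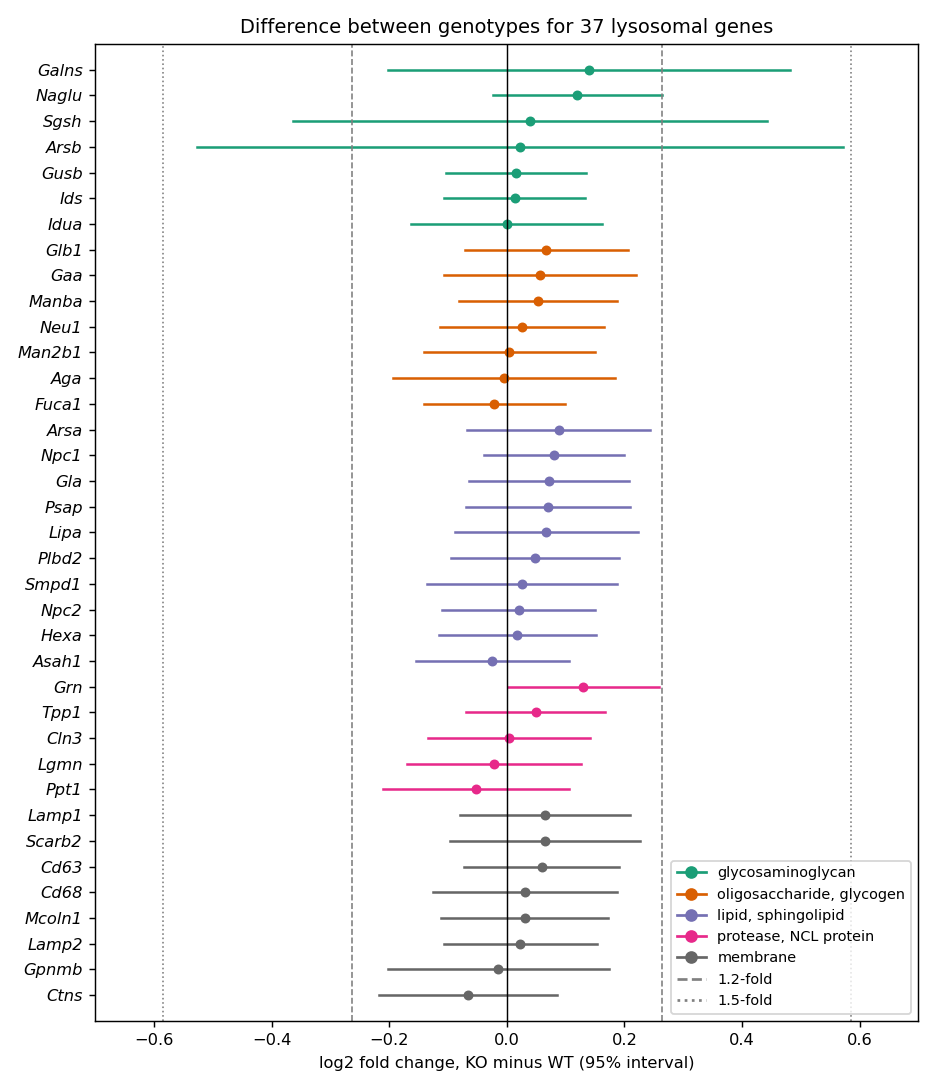
Each point is the log2 fold change (KO minus WT) of 1 lysosomal gene with its 95% interval from edgeR, coloured by role; dashed lines mark 1.2-fold and dotted lines 1.5-fold. Of the 37 intervals, 33 lie inside the dashed lines and all lie inside the dotted lines, and the widest are those of Arsb, Sgsh and Galns.

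Most point estimates were slightly above 0. Of the 37 log2 fold changes 29 were positive and 8 negative, or 78.4% above 0, with a median of 0.03. Among all tested genes 50.0% were above 0, and the median was 8.37e-05. The largest and smallest members were Galns at 0.14 and Ctns at -0.07. The number above 0 was 30 with RLE size factors and 27 with upper-quartile factors, and it ran from 21 (without WT 3) to 31 (without WT 1) when single libraries were left out. Without KO 1 and WT 2 together it was 27. Summed over members, lysosomal transcripts made up 4.56%, 4.80% and 4.63% of all counts in KO 1, KO 2 and KO 3, against 4.61%, 4.44% and 4.49% in WT 1, WT 2 and WT 3. The ranges overlap, since WT 1 lies above KO 1.

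Grn encodes progranulin, a secreted and lysosomal protein that is cut into granulins. It was at 2444, 2542 and 2372 CPM in the KO libraries, against 2280, 2216 and 2227 CPM in the WT libraries. Every KO value lay above every WT value. The log2 fold change was 0.13 with a 95% interval from 0.00152 to 0.26 (edgeR unadjusted p = 0.0478, adjusted p = 0.999949), so Grn did not pass, and over 15 alternatives its adjusted p was never below 0.9105. Npc1, the membrane protein that moves cholesterol out of lysosomes, was at 508, 495 and 489 CPM in KO and at 484, 473 and 456 CPM in WT. Its groups did not overlap either, and the log2 fold change was 0.08 with an interval from -0.04 to 0.20. Grn and Npc1 were the only members without overlap, both higher in KO, which is 5.41% of the members. Over all tested genes 8.65% did not overlap in either direction and 4.05% did so with KO higher, so the members' share lay near the background.

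**Figure D2:**
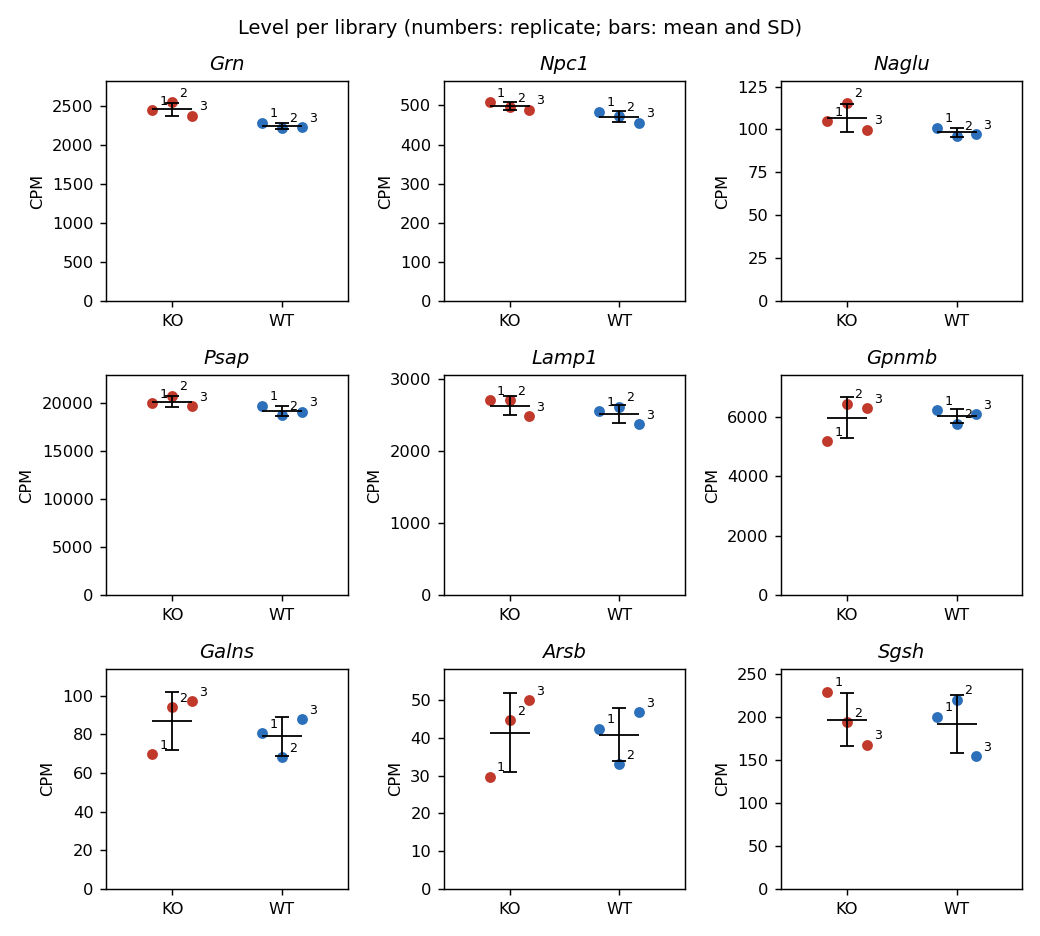
Level in CPM of 9 lysosomal genes in each library (KO left, WT right; small numbers give the replicate), with the mean and SD of 3 libraries as bars. KO and WT points are apart for Grn and Npc1 and overlap for the other 7; Arsb and Galns are lowest in KO 1 and WT 2 within their genotypes, and Sgsh is highest there.

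Levels can be compared between genes per length, as CPM divided by the merged exon length in kilobases (RPKM). On that scale the members spanned a ratio of 1051 between the highest and the lowest. Psap, which encodes prosaposin, the precursor of the saposins that present sphingolipids to hydrolases, led with 7334 ± 203 RPKM in KO and 6989 ± 181 RPKM in WT (SD, n = 3). In CPM it stood at 19953, 20748 and 19675 in KO, against 19712, 18733 and 19084 in WT. KO 3 lay just below WT 1, so the groups overlapped, and the log2 fold change was 0.07 with an interval from -0.07 to 0.21. Psap alone held between 1.97% and 2.08% of all counts in KO and between 1.88% and 1.96% in WT, which is 42.2% to 43.6% of the members' counts over the 6 libraries.

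Cd68, the macrophage glycoprotein macrosialin, came next with 1544 ± 94 RPKM in KO and 1512 ± 100 RPKM in WT (SD, n = 3). Lamp1, Gpnmb and Lgmn followed between 794 and 1012 RPKM in any library, and their ranges overlapped, so that their order is not set by these data. Hexa and Grn lay between 638 and 732 RPKM, also with overlapping ranges. At the other end stood Arsb at 6.87 ± 1.74 RPKM in KO and 6.76 ± 1.16 RPKM in WT, Manba at 9.03 ± 0.293 RPKM in KO and 8.71 ± 0.237 RPKM in WT, and Mcoln1 at 9.11 ± 0.113 RPKM in KO and 8.93 ± 0.543 RPKM in WT (SD, n = 3). Even the least abundant member by CPM, Aga, averaged 27.7 CPM over the genotypes, where the median tested gene had 22.8 CPM.

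**Figure D3:**
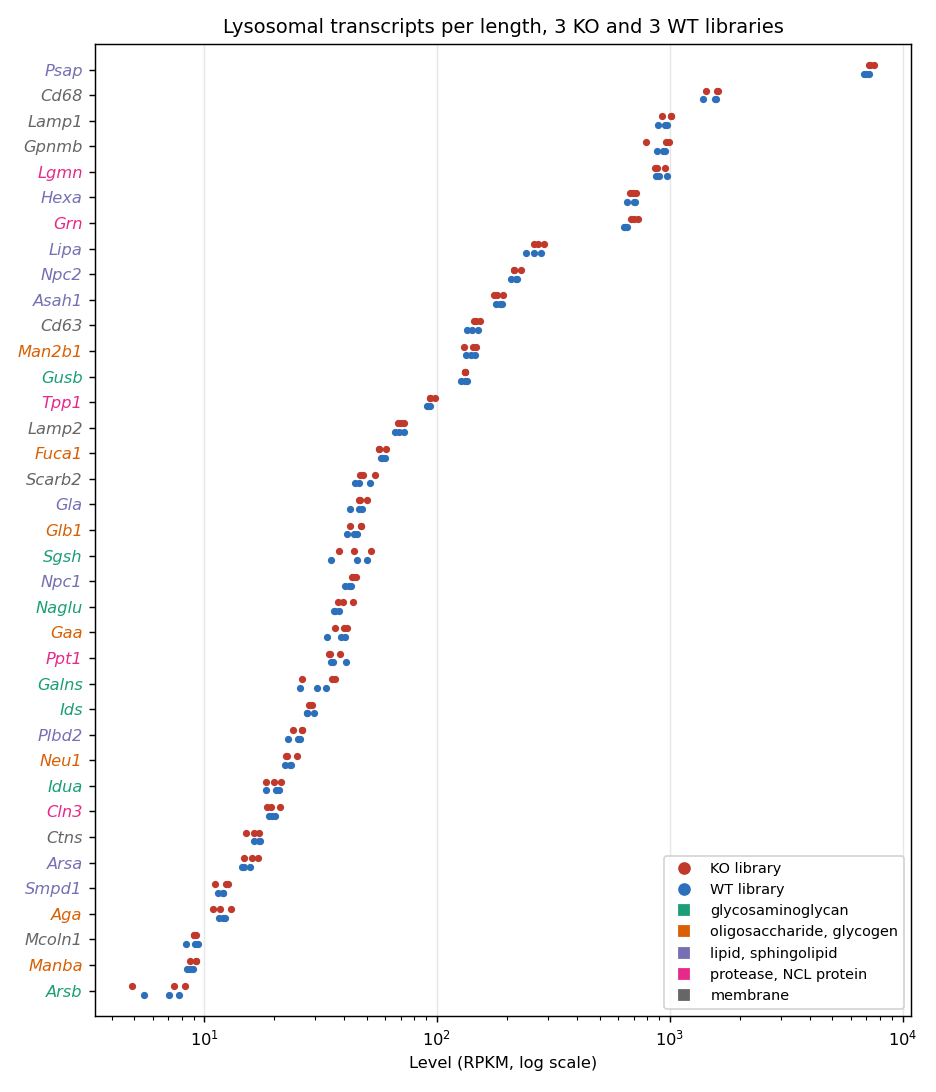
Level of each lysosomal gene per length (RPKM, logarithmic axis) in 3 KO and 3 WT libraries, ordered by the mean over all libraries; gene names are coloured by role. Psap stands alone at the top, between 6827 and 7561 RPKM, Arsb is lowest, and KO and WT points lie close together at every level.

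The glycosaminoglycan-degrading enzymes held the members that varied most. Of 7 genes 6 had a log2 fold change above 0, with a median of 0.02, and none passed. Naglu, which removes N-acetylglucosamine from heparan sulfate, had the smallest p of this group. Its level was 105, 116 and 99.9 CPM in KO, against 101, 96.4 and 97.4 CPM in WT, and KO 3 lay below WT 1. The log2 fold change was 0.12 with an interval from -0.02 to 0.26, and it was 0.06 without KO 2.

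Arsb, the arylsulfatase that acts on dermatan sulfate and chondroitin sulfate, stood at 29.7, 44.7 and 50.0 CPM in KO, against 42.5, 33.1 and 46.9 CPM in WT. The spread among libraries was far larger than the difference between genotypes, with a log2 fold change of 0.02 and an interval from -0.53 to 0.57. The value was below 0 without KO 2 (-0.03), without KO 3 (-0.13) or without WT 2 (-0.11). Galns, the sulfatase of keratan sulfate, was at 69.8, 94.1 and 97.1 CPM in KO and 80.8, 68.3 and 88.0 CPM in WT. Its log2 fold change of 0.14, with an interval from -0.20 to 0.48, was the largest of the members over all 6 libraries and did not pass. It was 0.27 without KO 1 and 0.22 without WT 3, but 0.08 without KO 2, 0.05 without KO 3 and 0.04 without WT 2. In these last cases Grn had the higher value, at 0.10, 0.15 and 0.12. Without KO 1 and WT 2 together the log2 fold change was 0.18 for Galns and 0.08 for Arsb.

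Sgsh, a sulfatase of heparan sulfate that is described here because of its spread, moved the other way between libraries. Its CPM was 229, 194 and 168 in KO, against 201, 220 and 154 in WT. Arsb and Galns were lowest within their genotypes in KO 1 and in WT 2, where Sgsh was highest. The remaining enzymes of the group, Gusb, which cleaves off glucuronic acid, Ids, which removes sulfate from iduronic acid, and Idua, which cleaves off iduronic acid, were steadier. Gusb was at 603, 601 and 601 CPM in KO and 598, 575 and 613 CPM in WT. In Arsb 32.3% of exon bases are shared with the lincRNA gene Gm26527 on the opposite strand, and in Sgsh 21.6% with Card14 on the opposite strand (GENCODE M21). Whether the counting used strand is not stated in the labels, so reads of these neighbours cannot be separated.

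**Figure D4:**
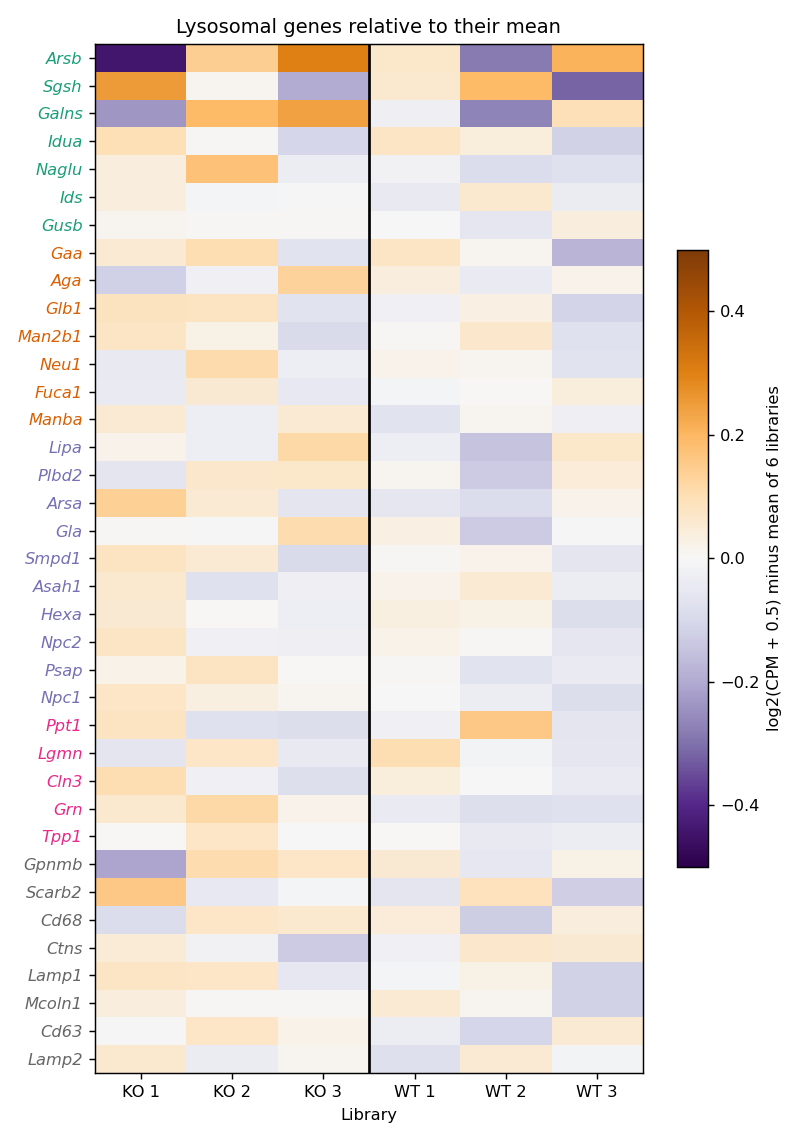
Log2(CPM + 0.5) of each lysosomal gene minus its mean over the 6 libraries, with KO libraries left of the line and WT libraries right of it; genes are grouped by role and, within a role, ordered from most to least variable. The strongest colours are in Arsb, Sgsh and Galns, where KO 1 and WT 2 share a sign, and most other genes stay close to 0.

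Members differed in how much they varied within a genotype. The pooled within-genotype SD of log2 CPM ran from 0.03 (Tpp1) to 0.33 (Arsb), with a median of 0.07. The median was 0.08 for tested genes at or above the lowest member's level, which are less abundant than the members in the median. Between its highest and lowest library a member differed by 1.07-fold (Gusb) to 1.68-fold (Arsb), and 31 of the 37 differed by less than 1.2-fold. Aga, Arsb, Cd63, Cd68, Galns, Gpnmb and Plbd2 were lowest of their genotype in both KO 1 and WT 2, which is 18.9% of the members and 20.9% of all tested genes. The opposite pattern, highest in KO 1 and in WT 2, held for 11 members, or 29.7%, against 20.0% of all tested genes; it included Sgsh, Lamp1, Lamp2, Scarb2 and Man2b1.

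Several sums of marker genes also set KO 1 and WT 2 apart. Those of neutrophils, osteoclasts, stromal cells, lymphoid cells and the group of mast cells, basophils and eosinophils were lowest of their genotype in KO 1 and in WT 2, and that of macrophages was highest there. Macrophage markers summed to 10522 CPM in KO 1, 9372 in KO 2 and 8983 in KO 3, against 9255, 10193 and 9546 CPM in WT 1, WT 2 and WT 3. Markers of mast cells, basophils and eosinophils summed to 21.1, 42.3 and 45.6 CPM in KO, against 25.3, 20.7 and 48.8 CPM in WT. Most of each sum was Prg2, between 18.1 and 38.6 CPM in KO and between 16.8 and 40.2 CPM in WT. Not every gene of that list had the pattern. Among KO libraries Gata2 was highest in KO 1, and among WT libraries Mcpt8 was not lowest in WT 2. Lymphoid markers summed to 0.212, 1.91 and 1.62 CPM in KO, against 1.19, 0.527 and 2.87 CPM in WT. Neutrophil markers summed to 1607 CPM in KO 1, with 2523 and 2571 CPM in the other KO libraries, and to 1617 CPM in WT 2, with 2082 and 2941 CPM in the other WT libraries. All 8 genes of that list were tested, and the highest was Ngp, between 624 and 1001 CPM in KO and between 650 and 1194 CPM in WT. Osteoclast markers summed to 54.3 CPM in KO 1, 82.5 in KO 2 and 90.4 in KO 3, against 92.4, 48.5 and 94.5 CPM in WT 1, WT 2 and WT 3. Of these, Oscar was at or near 0 throughout, at most 0.136 CPM. Mmp9 made up most of each osteoclast sum, between 35.4 and 58.7 CPM in KO and between 32.9 and 62.2 CPM in WT. Stromal markers, of which Lum was at most 0.251 CPM, summed to 93.7, 226 and 188 CPM in the KO libraries and 144, 92.1 and 147 CPM in the WT libraries. The part of these cell types in the library differences of Arsb, Galns, Sgsh and the other members with either pattern was not tested.

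Enzymes that trim glycoprotein sugars, together with acid alpha-glucosidase, which degrades glycogen, showed small differences. Of the log2 fold changes of 7 genes 5 were above 0, with a median of 0.03, and all 7 intervals lay within 1.2-fold. Glb1, the beta-galactosidase whose activity is a common lysosomal stain, was at 142, 142 and 128 CPM in KO, against 132, 137 and 124 CPM in WT, and the ranges overlapped. Its log2 fold change was 0.07 with an interval from -0.07 to 0.21. Manba, a beta-mannosidase, was at 64.2, 60.6 and 64.2 CPM in KO and 59.0, 62.3 and 60.8 CPM in WT. Man2b1, the alpha-mannosidase and the most abundant of the group in CPM, had a log2 fold change of 0.00386. Gaa, Neu1, Aga and Fuca1, which encode acid alpha-glucosidase, a sialidase, aspartylglucosaminidase and an alpha-fucosidase, had log2 fold changes between -0.02 and 0.06.

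Proteins of lipid breakdown and lipid export had 9 of 10 log2 fold changes above 0, with a median of 0.06, and none passed. Lipa, the acid lipase that releases cholesterol and fatty acids from lipoprotein lipids, was at 1835, 1775 and 1961 CPM in KO, against 1778, 1638 and 1902 CPM in WT. The groups overlapped and the log2 fold change was 0.07 with an interval from -0.09 to 0.22. Arsa, the arylsulfatase that removes sulfate from sulfatides, was at 62.7, 59.0 and 54.6 CPM in KO and 54.7, 53.6 and 57.6 CPM in WT. Its log2 fold change was 0.09 with an interval from -0.07 to 0.24. Leaving out KO 3 gave 0.14, leaving out KO 1 gave 0.04, and leaving out both KO 1 and WT 2 gave 0.02. In Arsa 18.8% of exon bases are shared with the antisense gene C230037L18Rik.

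Gla, the alpha-galactosidase of globo-series glycolipids, was at 152, 151 and 164 CPM in KO, against 155, 139 and 151 CPM in WT. Hexa, the alpha subunit of beta-hexosaminidase, which degrades gangliosides, was at 1435, 1384 and 1354 CPM in KO and 1414, 1406 and 1302 CPM in WT, a log2 fold change of 0.02. Npc2, the soluble partner of Npc1 in cholesterol export, had 0.02 as well. Asah1, acid ceramidase, was the only member of the group below 0, at -0.02. Smpd1, acid sphingomyelinase, and Plbd2, a phospholipase B-like protein, had 0.03 and 0.05. Gla, Ids and Lamp2 lie on the X chromosome. The Y-linked gene Ddx3y was between 74.1 and 88.5 CPM in KO and between 73.1 and 78.2 CPM in WT, so no library lacked it.

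Proteases and proteins linked to neuronal ceroid lipofuscinosis, Grn among them, had 3 of 5 log2 fold changes above 0, and all 5 intervals lay within 1.2-fold. Lgmn, the asparaginyl endopeptidase that activates other lysosomal proteases, was at 2012, 2210 and 2039 CPM in KO, against 2259, 2081 and 2018 CPM in WT. Its log2 fold change was -0.02 with an interval from -0.17 to 0.13. Tpp1, a tripeptidyl peptidase, had 0.05 and was the least variable member. Ppt1, which removes palmitate from proteins, had -0.05 with an interval from -0.21 to 0.11, and Cln3, a lysosomal membrane protein, had 0.00342.

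The 8 membrane proteins had 6 log2 fold changes above 0, with a median of 0.03, and none passed. Lamp1, a heavily glycosylated protein that lines the lysosomal membrane, was at 2707, 2701 and 2480 CPM in KO, against 2551, 2615 and 2374 CPM in WT. The log2 fold change was 0.07 with an interval from -0.08 to 0.21, and Lamp2, its relative, which also serves chaperone-mediated autophagy, had 0.02. Cd63, a tetraspanin of lysosomes and late endosomes, was at 532, 562 and 541 CPM in KO and 521, 495 and 553 CPM in WT. Cd68 was at 1805, 2019 and 1999 CPM in KO and 1979, 1755 and 1966 CPM in WT, with low values in KO 1 and WT 2. Its log2 fold change was 0.0306 over all libraries and 0.0262 without KO 1 and WT 2 together.

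Gpnmb, a transmembrane glycoprotein of lysosome-rich macrophages, was the second most counted member after Psap. It was at 5175, 6448 and 6295 CPM in KO, against 6232, 5769 and 6098 CPM in WT. KO 1 was the lowest of all libraries and KO 2 the highest. The log2 fold change was -0.01 with an interval from -0.20 to 0.17. It was above 0 without KO 1 (0.08), without WT 1 (0.00958) and without KO 1 and WT 2 together (0.05). Ctns, the cystine exporter cystinosin, had the lowest log2 fold change of the members over all 6 libraries. Its level was 58.2, 55.6 and 51.3 CPM in KO and 55.4, 58.8 and 58.6 CPM in WT, a log2 fold change of -0.07 with an interval from -0.22 to 0.09, and it was -0.02 without KO 3. Mcoln1, a lysosomal calcium channel, and Scarb2, the receptor that carries glucocerebrosidase to lysosomes, had 0.03 and 0.06.

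Promoters of lysosomal genes are known for the CLEAR element, GTCACGTGAC, which factors of the TFEB family bind and which contains the E-box CACGTG. RefSeq promoter windows on GRCm38.p6, from 250 bases before to 50 bases after each annotated start, were matched for 32 of the 37 members. Each of these motifs reads the same on both strands, and the longer ones contain the shorter. CACGTG was present for 10 of the 32 members, or 31.2%, against 8.09% of 27025 genes with a window. TCACGTGA was present for 3, or 9.38%, against 1.12%, and GTCACGTGAC for 1, Cln3, or 3.12%, against 0.370%. The background holds genes whether or not they are expressed in these cells, and a gene counted if any of its windows matched. Because the element is known from promoters of lysosomal genes, the higher share among these members is no independent result. The sequences below are shown because they hold the longer matches or, for Lamp1, several of them; each is written 5′ to 3′ on the strand given, and capitals mark the motif.
Lamp1, chr8:13159090-13159161, plus strand: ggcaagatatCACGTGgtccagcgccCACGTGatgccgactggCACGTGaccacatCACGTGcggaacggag
Cln3, chr7:126583342-126583367, minus strand: cgggtactGTCACGTGACccccaacc
Gla, chrX:134601184-134601209, minus strand: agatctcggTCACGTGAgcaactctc
Gla, chrX:134601217-134601242, minus strand: agcgattgaTCACGTGAgcatctacg
Mcoln1, chr8:3500464-3500489, plus strand: gcgccccgcTCACGTGAccgcggcgc

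The Lamp1 window holds 4 matches centred between 58 and 12 bases before the start. The Cln3 match lies 118 bases before the second of its annotated starts, the Gla matches 191 and 224 bases, and the Mcoln1 match shown 42 bases before the start. The 10 members with CACGTG, which also include Arsa, Gaa, Glb1, Lgmn, Naglu and Sgsh, had 9 log2 fold changes above 0 and a median of 0.06, with a range from -0.02 to 0.12. The 22 members with a window and no match had 17 above 0 and a median of 0.02, with a range from -0.07 to 0.13. These ranges overlap, and the difference between the medians was not tested. A match is a description of the letters and not a measured binding site.

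Factors of the TFEB family did not pass either. Tfe3, the most abundant in CPM, averaged 234 ± 13.2 CPM in KO libraries and 235 ± 7.24 CPM in WT libraries, and Tfeb averaged 63.5 ± 2.16 CPM in KO libraries and 64.0 ± 2.33 CPM in WT libraries (SD, n = 3 each). Log2 fold changes were -0.01 for Tfeb, -0.00580 for Tfe3, 0.03 for Mitf and 0.07 for Tfec, a relative found in macrophages, and the intervals lay within 1.2-fold for the first 3 and within 1.5-fold for Tfec.

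Other lysosomal genes were followed through lists that are not part of the 37. None of 23 tested other hydrolases and activators passed, and their log2 fold changes had a median of -0.00165, with 11 above 0 and 12 below. Rnaset2b, a lysosomal ribonuclease, had the smallest p of that list, at 66.1, 32.5 and 67.1 CPM in KO, against 38.2, 36.3 and 34.0 CPM in WT. KO 2 lay below every WT library, and reads of Rnaset2b can be shared with its near-identical paralog Rnaset2a, so its value is uncertain. The hyaluronidases Hyal2 and Hyal1 followed with log2 fold changes of 0.16 and -0.14.

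Among 26 tested other lysosomal membrane proteins none passed, 15 were above 0 and the median was 0.01. Slc15a3, a transporter of histidine and peptides, was at 445, 467 and 507 CPM in KO, against 410, 411 and 440 CPM in WT. Its groups did not overlap, and the log2 fold change of 0.17 had an interval from 0.03 to 0.31 (edgeR unadjusted p = 0.0217, adjusted p = 0.999949). Tmem106b, a lysosomal transmembrane protein, had a log2 fold change of 0.11, and its groups did not overlap either. Mfsd8, the only other gene of the list without overlap, was lower in KO, with a mean of 8.56 CPM against 9.83 CPM in WT. Genes without overlap made up 11.5% of the list, against 8.65% of all tested genes. Mcoln3, a relative of Mcoln1 with few reads, had a log2 fold change of -0.59 with an interval from -1.31 to 0.14. Of 22 genes of mannose 6-phosphate targeting, sulfatase maturation and sorting none passed, 13 were above 0 and the median was 0.00758. Cln6, which helps enzymes leave the endoplasmic reticulum, had -0.10, and Vps35 and Ap3b1, subunits of the sorting complexes retromer and AP-3, had 0.08 and 0.06.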

How the data were processed

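The values are raw read counts, deposited by the authors as 1 gene table covering 6 BMDM libraries. The submitters' processing notes name fastp, HISAT2, HTSeq and build mm10. Versions, annotation, strand setting and filters are not named by those notes. Genotype and replicate came from the titles. Members, gene lists and tests were chosen with earlier results of these data known.

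Differences were tested with edgeR 4.0.16 (R 4.3.3): TMM, filterByExpr by genotype (minimum count 10), robust quasi-likelihood fits in legacy mode, KO minus WT, Benjamini-Hochberg over 12605 genes, threshold 0.05. Standard errors are the size of the change over the root of F; intervals are at 95%. CPM use TMM-scaled library sizes, and RPKM divide them by merged exon length of all GENCODE M21 transcripts, which is longer than any one transcript. Coordinates and promoters are from RefSeq GRCm38.p6, the assembly of mm10. Replicate pairs of a genotype differed by chi-square values between 11.4 and 34.2 per degree of freedom, so each library counted once. The fit was tested on simulated data with changes of at least 1.5-fold, where it recovered most changed genes over all sizes together. Changes as small as the members' point estimates were not simulated, so their recovery is not known. The fit's share of false calls lay above the nominal threshold in most simulated data sets but not in all. Its p-values may therefore be somewhat too small and its intervals somewhat too narrow.

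Named members were those with the 12 smallest p, the 6 highest and 3 lowest RPKM, and those whose groups did not overlap, 19 in all; of each further list, up to 3 genes with the smallest p. Other members and genes were singled out after their values were seen. Alternatives used RLE and upper-quartile factors, other filters, DESeq2 1.42.0, limma 3.58.1 (voom), no robust estimation, a replicate block, and left out libraries.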

Additional observations from a re-analysis of the deposited data

How the results depend on the processing

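Over 15 alternatives 0 of the 37 lysosomal genes passed in each, with an adjusted p of at least 0.9105. The median log2 fold change of the members ran from 0.02 to 0.05 and the number above 0 from 21 to 31; leaving out single libraries gave these same limits. Over all genes the number called was 4, and 3 to 5 when single libraries were left out; it was 16 with DESeq2, where the cause was not tested. With the replicate number as a block it was 8 genes and 0 members. Deviations of same-numbered libraries correlated for number 3 (0.36) but not for numbers 1 (0.04) and 2 (-0.19), and KO 1 correlated best with WT 2 (0.43), so the numbers were not treated as pairs. For 15 of the 37 members the sign was the same in all alternatives. When single libraries were left out, the log2 fold change ran from -0.13 to 0.21 for Arsb, -0.0263 to 0.0800 for Cd68, -0.0719 to 0.0785 for Gpnmb, -0.0183 to 0.0392 for Hexa, -0.0642 to 0.0262 for Lgmn and -0.0173 to 0.0658 for Mcoln1, and without KO 1 and WT 2 together it was 0.0474 for Gpnmb.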
